A study of Mus musculus with 18 samples.

Results

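The enzymes of heme synthesis were examined in the brains of mouse pups given lead acetate or saline. The genes were Alas1, Alas2, Alad, Uros, Urod, Cpox, Ppox and Fech, 8 of the 18194 genes that the arrays name, and they were picked by symbol as enzymes of the pathway, with no threshold on a measured value. Each was read from probe sets annotated to it alone, 19 in all. The brightest probe set by mean level stands for the gene, and the others serve as a check. No member was called, meaning an adjusted p under 0.05, for lead, for genotype or for a lead difference that depends on genotype. Among the values farthest from the other genes were those of Cpox with lead, Alas2 in the heterozygotes and Alad across genotypes. All are given in full.

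Whole brain was taken from pups of 3 genotypes, each treated with lead acetate or saline, which gives 6 groups. The wild-type (+/+), heterozygous (+/-) and knockout (-/-, labelled Mt-KO) pups came from brother-sister matings in a metallothionein knockout strain that had been backcrossed to C57BL/6J for 7 generations or more. Lead acetate at 50 mg/kg, or saline to weight-matched pups, was injected 2 times daily, with 4 h between, on postnatal days 7 and 8. The pups were killed on day 8, when 6 h had passed since the final dose. The labels name male and female pups. RNA of 5 pups was pooled for each genotype and treatment and read on 1 array, so each group is 1 pool and no group is replicated. The 3 genotypes therefore stand in as replicates of lead, and the spread between pups is unknown.

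Heme is an iron porphyrin built partly in mitochondria and partly in the cytosol. ALA synthase joins glycine to succinyl-CoA, and its ubiquitous form Alas1 is held down by heme itself, while Alas2 is the form of red cell precursors. Alad joins molecules of aminolevulinic acid (ALA) into porphobilinogen. Uros closes the porphyrin ring and Urod trims it, Cpox and Ppox oxidise it inside mitochondria, and Fech inserts iron. Lead is known to inhibit the Alad protein, a zinc enzyme, and to disturb the iron insertion made by Fech, which leaves ALA and zinc protoporphyrin as markers of exposure. Metallothioneins are small proteins that bind zinc and other metals. The arrays measured RNA, not the activity of these enzymes.

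The promoters of the 2 ALA synthase genes are printed because these genes are the 2 forms of the first enzyme, with different known control. Windows of the 250 bases before RefSeq gene starts on GRCm38.p6 were read for 7 of the 8 genes, and 4 motifs were searched on both strands. No window of Fech was read, and the search of member windows did not cover every chromosome. The palindrome known for the factor NRF1 was taken as GCGCA joined to its own reverse complement. The site of erythroid GATA factors was taken as AGATAA. The so-called CACC box was taken as CCACCC, and the binding site of Sp1, the GC box, as GGGCGG. The Alas1 window lies at chr9:106247731-106247980 on the minus strand, upstream of its second listed start, and the Alas2 window at chrX:150547167-150547416 on the plus strand. Both are written 5′ to 3′ with the matches in capitals.
Alas1: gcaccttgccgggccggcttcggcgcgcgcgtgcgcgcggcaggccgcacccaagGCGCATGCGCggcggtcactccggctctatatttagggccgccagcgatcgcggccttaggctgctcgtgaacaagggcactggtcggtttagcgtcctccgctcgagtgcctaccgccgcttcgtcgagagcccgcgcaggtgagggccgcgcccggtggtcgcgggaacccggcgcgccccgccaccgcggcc
Alas2: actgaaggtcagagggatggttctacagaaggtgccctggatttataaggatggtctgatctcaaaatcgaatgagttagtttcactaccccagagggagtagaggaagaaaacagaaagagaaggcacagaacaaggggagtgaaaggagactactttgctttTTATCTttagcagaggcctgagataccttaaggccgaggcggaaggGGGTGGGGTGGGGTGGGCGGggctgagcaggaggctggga

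The Alas1 window held 1 match, to the NRF1 palindrome, 195 to 186 bases before the start, and 0.782% of the 32851 mouse promoter windows of this length hold it. The Alas2 window held AGATAA as its reverse complement TTATCT, 86 to 81 bases before the start, a motif found in 9.99% of windows. It also held CCACCC 3 times as its reverse complement GGGTGG, in overlapping matches of which the last overlaps a GC box. CACC boxes were found in 28.1% and GC boxes in 32.7% of windows. Among the other windows, the first of Alas1 held a CACC box and a GC box, those of Alad and Urod and the first of Uros held GC boxes only, and those of Cpox and Ppox held none of the 4 motifs. The factors named for the first 2 motifs were measured too. The lead coefficient, on the log2 scale, was -0.01 for Nrf1 and -0.01 for Gata1, and genes with the NRF1 palindrome or the GATA motif had median lead coefficients of 0.02 and 0.02, against 0.02 over all genes with a window.

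Values are log2 RMA levels, and a pair difference is the lead pool minus the saline pool of the same genotype. The 6 arrays correlated with each other at 0.982 to 0.993. Their median over the 10916 genes bright enough to be tested ran from 10.87 in the wild-type lead pool to 11.05 in the wild-type saline pool. The median gene differed between lead and saline by -0.18 in wild type, by 0.15 in the heterozygotes and by 0.09 in Mt-KO. Pair differences are therefore given relative to the median gene of the pair, unless they are said to be as deposited, while a lead coefficient is the mean of the 3 pair differences as deposited. The shift was one of bright genes, because the median over all probe sets was 9.10 to 9.15 on every array. A dim gene whose deposited values stayed close together, such as Gata1 (9.47 to 9.51), therefore read 0.17, -0.16 and -0.10 relative to the median gene. The 3′ minus 5′ signal of the Gapdh control probe sets, a sign of RNA or labelling quality, was highest in the wild-type saline pool at 1.19 and 0.54 to 0.82 in the others. Mt1 lay at 13.17 and 13.30 in wild type, 12.45 and 12.87 in the heterozygotes, and 11.68 and 11.71 in Mt-KO, in the order of the genotype labels. The pools also differed in the sex of their pups. Eif2s3y, a Y-linked gene, was 6.50 in Mt-KO saline, 11.16 in Mt-KO lead and 9.45 to 10.45 in the others. Xist, an RNA of female cells, was 12.75 in Mt-KO saline, 10.23 in Mt-KO lead and 11.91 to 12.20 in the others. Sex and lead therefore cannot be told apart in the Mt-KO pair. Markers of the brain were bright, with all 7 listed neuron genes tested and a summed log2 level of 16.62 to 17.26. The 6 listed astrocyte genes had a median lead coefficient of 0.23, with 0 called. The pituitary hormone Gh stood apart in the heterozygous lead pool at 11.48, against 9.29 to 9.83. The part of these differences in the results was not tested. In bulk brain RNA, fewer cells of a type and less RNA per cell cannot be told apart.

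**Figure D1:**
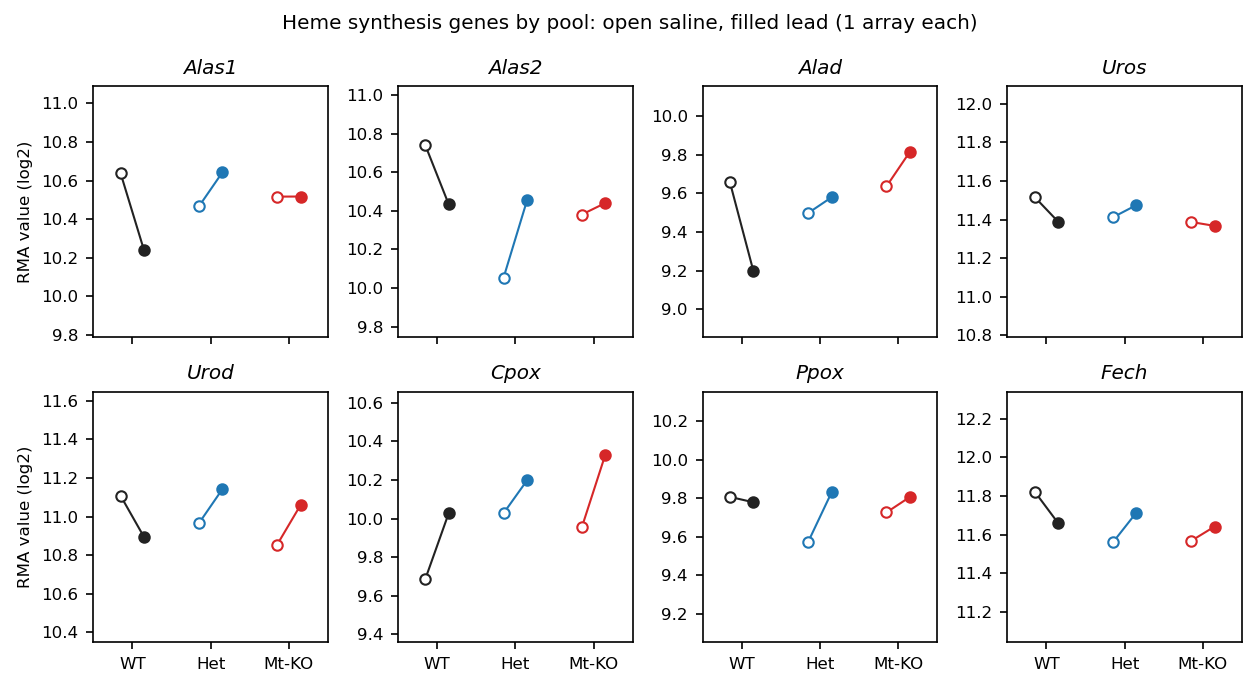
Log2 RMA level (y axis, each panel on its own range but with the same span) of the 8 heme synthesis genes by genotype (x axis: wild-type, heterozygous, Mt-KO); open points are saline pools, filled points lead pools, and a line joins the 2 pools of a genotype. Cpox is higher in the lead pool of each genotype (10.03 against 9.69, 10.20 against 10.03 and 10.33 against 9.95), while Alad is lower with lead in wild type and higher in Mt-KO.

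As deposited, most members lay on the side of the median gene of their arrays. In the wild-type pair 7 of the 8 genes were lower with lead, and Cpox was the exception. In the heterozygous pair all 8 were higher, and in the Mt-KO pair 7 were higher and Uros was lower. Once the median gene of each pair was subtracted, 4 of the 8 lay above it in the wild-type pair, and the members ran from -0.28 to 0.53 there, from -0.09 to 0.25 in the heterozygous pair and from -0.11 to 0.28 in the Mt-KO pair. No member lay more than 1.5-fold from the median gene in any of these pairs, where 1.64%, 0.440% and 0.311% of all genes tested did. These single-array differences have no replicate check.

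**Figure D2:**
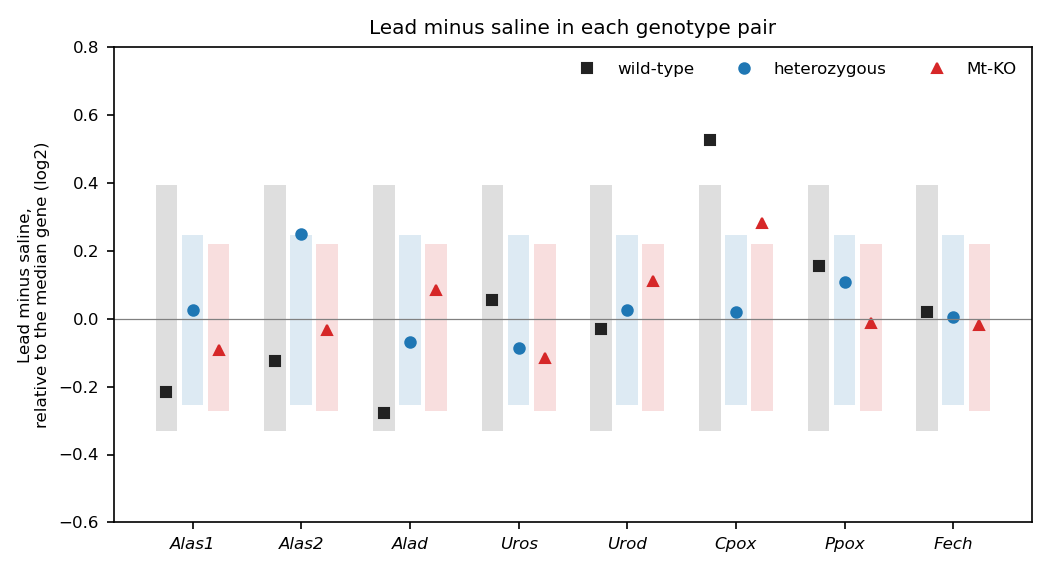
Lead minus saline difference in log2 RMA level, relative to the median gene of the pair (y axis), for each of the 8 genes (x axis), with 1 point per genotype; shaded bars mark the 5th to 95th percentile of all 10916 genes tested in that pair. Cpox lies past the 95th percentile in the wild-type (0.53 against 0.39) and Mt-KO pairs (0.28 against 0.22), and Alas2 does so in the heterozygous pair (0.251 against 0.246).

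Alas1, the ubiquitous ALA synthase, had levels of 10.64 with saline and 10.24 with lead in wild type, 10.47 and 10.64 in the heterozygotes, and 10.52 and 10.52 in Mt-KO. The wild-type lead pool was the lowest of the 6, and the lead and saline levels overlapped. Relative to the median gene the differences were -0.22, 0.03 and -0.09, and the lead coefficient of the fit over the 6 arrays was -0.07 (SE 0.13, limma adjusted p = 1, 95% interval -0.32 to 0.17). The second probe set gave 0.10, -0.08 and -0.15, with the opposite sign in the wild-type and heterozygous pairs. That opposition came with subtracting the median gene. As deposited the second gave -0.08, 0.07 and -0.05 and the first -0.40, 0.18 and 0.00, with the same signs in those pairs.

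Alas2, the erythroid ALA synthase, has 1 probe set. Its levels were 10.74 with saline and 10.43 with lead in wild type, 10.05 and 10.45 in the heterozygotes, and 10.38 and 10.44 in Mt-KO. The heterozygous saline pool was the lowest and the wild-type saline pool the highest, so the saline pools span all of the lead pools. The relative lead differences were -0.12, 0.25 and -0.03, and the lead coefficient was 0.05 (SE 0.13, limma adjusted p = 1).

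Markers of red cells were set beside Alas2, since brains hold blood. Of 20 erythroid genes listed, 14 were measured and 5 were bright enough to be tested, of which 0 were called with lead. Their summed level, on the log2 scale, was 12.98 to 13.11 in the saline pools and 13.05 to 13.09 in the lead pools, with Bpgm, the bisphosphoglycerate mutase of red cells, the brightest of them. Hbb-b2, a beta globin, was 9.84 to 10.17 over the 6 pools, and the transcription factor Gata1 was 9.47 to 9.51. The alpha globin gene Hba-a1 was 7.88 to 8.04 and was too dim to be tested, and probe sets shared by several globin symbols were left out. Ermap, a red cell membrane protein, was 9.25 to 9.76, with wild-type saline, the pool highest in Alas2, as its lowest pool. Bpgm was 11.36 to 11.69 and, like Alas2, highest in wild-type saline. Alas2 ranged over 0.69 between pools. The part of blood in the Alas2 levels was not tested.

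**Figure D3:**
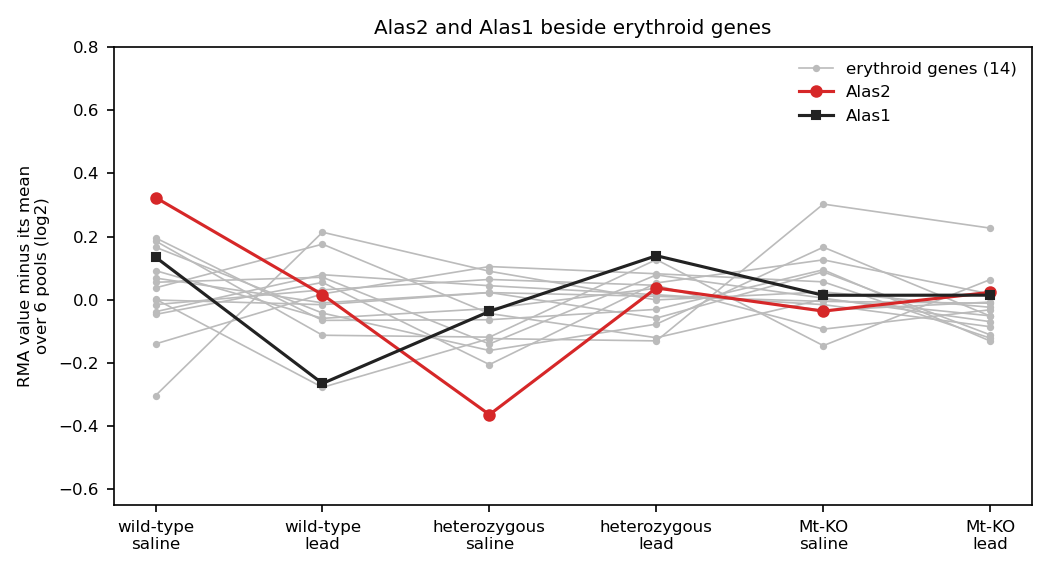
Log2 RMA level minus the gene's own mean over the 6 pools (y axis) in each pool (x axis) for Alas2 (red), Alas1 (black) and the 14 measured erythroid genes (grey); lines only join the points of a gene. The wild-type saline pool has the highest Alas2 level (10.74) and the heterozygous saline pool the lowest (10.05); among the erythroid genes Bpgm is also highest in wild-type saline (11.69) and Ermap is lowest there (9.25).

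Alad, the enzyme whose protein lead inhibits, had levels of 9.66 in wild-type saline and 9.20 in wild-type lead. The heterozygous pools were at 9.50 and 9.58, and the Mt-KO pools at 9.64 and 9.82. The wild-type lead pool was the lowest of the 6 and the Mt-KO lead pool the highest, so the lead pools lie on both sides of the saline pools. Relative to the median gene the lead difference was -0.28 in wild type, -0.07 in the heterozygotes and 0.09 in Mt-KO. As deposited the same pairs gave -0.46, 0.08 and 0.18. The lead coefficient over the 3 genotypes was -0.07 (SE 0.11, 95% interval -0.28 to 0.15, limma adjusted p = 1).

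The order of the Alad differences over the genotypes was put to the fit with lead by number of intact alleles. The lead difference was lower by 0.32 on the log2 scale for each intact allele (coefficient -0.32, SE 0.10), with a limma adjusted p of 0.0549, above the threshold, and an unadjusted p of 0.00225. Over all genes tested the median of that coefficient was -0.15 and 19.9% of genes lay above 0, so the array shift enters it for the typical gene. The shift was one of bright genes, and its size in a gene as dim as Alad was not tested. Of all genes tested, 3.77% were called in this comparison at an adjusted p under 0.05 and 20.1% had an unadjusted p under 0.05. Once each array was centred on its median gene, the Alad coefficient was -0.18 with a limma adjusted p of 0.315. After quantile normalization it was -0.29 with a limma adjusted p of 0.232. With single pools left out, the Alad coefficient ran from -0.47 to -0.17. It stayed at -0.32 without heterozygous lead, and was -0.17 without wild-type saline and -0.25 without wild-type lead. Relative to the median gene, the order of the differences from wild type up to Mt-KO was found in 20.5% of all genes and in 2 of the 8 members, Alad and Urod. The opposite order was found in 21.2% of all genes and in 3 members, Uros, Ppox and Fech.

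The second Alad probe set was dimmer, at 8.73 to 8.93 over the pools. Its relative lead differences were 0.03, -0.11 and 0.10, with the sign of the brighter probe set in the heterozygous and Mt-KO pairs. As deposited they were -0.15, 0.04 and 0.20, with the signs of the brighter one in all 3 pairs. In GC-RMA, another summary of the arrays, it read 2.38 to 2.58, below the median over all probe sets of every array (3.33 to 3.60). It is therefore a weak check. In the GC-RMA summary of the same arrays the brighter probe set gave 8.00 with saline and 6.83 with lead in wild type, 6.79 and 7.36 in the heterozygotes, and 7.52 and 8.06 in Mt-KO. The wild-type difference kept its sign there, at -1.02 relative to the median gene, and the heterozygous difference was 0.46, above 0 where RMA gave -0.07.

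Uros, which closes the porphyrin ring, was among the least variable of the 8. Its levels were 11.52 and 11.39 in wild type, 11.41 and 11.48 in the heterozygotes, and 11.39 and 11.37 in Mt-KO, saline first. The relative lead differences were 0.06, -0.09 and -0.11, and the lead coefficient was -0.03 (SE 0.14, limma adjusted p = 1). The second Uros probe set gave 0.17, -0.14 and -0.14. As deposited it was nearly flat, at -0.01, 0.01 and -0.05, so those values are mostly the median gene subtracted. Their signs are therefore no check on the first probe set. Urod, which trims the side chains of the ring, had levels of 11.11 and 10.89, 10.97 and 11.14, and 10.85 and 11.06 in the same order. Its relative differences were -0.03, 0.03 and 0.11, and its lead coefficient was 0.06 (SE 0.14, limma adjusted p = 1). The check probe set of Urod gave 0.18, -0.19 and 0.03, and kept the sign in the Mt-KO pair only. As deposited it gave -0.01, -0.04 and 0.12, against -0.21, 0.18 and 0.21 for the first.

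Cpox, the coproporphyrinogen oxidase of mitochondria, was the member farthest from the other genes with lead. Its levels were 9.69 with saline and 10.03 with lead in wild type, 10.03 and 10.20 in the heterozygotes, and 9.95 and 10.33 in Mt-KO. The lead pool was the higher one in each genotype, and the 3 lead levels all lay above the 3 saline levels, though wild-type lead and heterozygous saline were 10.0284 and 10.0273. Of the 8 members, 1 had lead levels wholly above the saline levels (3.86% of all genes tested) and 0 had them wholly below (1.41%). Relative to the median gene the differences were 0.53, 0.02 and 0.28. The lead coefficient was 0.30 (SE 0.12, 95% interval 0.06 to 0.53), a 1.23-fold higher level, above that of 99.2% of the genes tested. Its unadjusted p was 0.0130, and its limma adjusted p was 1, so it did not pass. Without the wild-type pair the coefficient was 0.27 with a limma adjusted p of 0.0180, in a fit that called 2632 of the 10916 genes.

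Cpox was the 1 member of 8 above the median gene in all 3 lead pairs, as 11.5% of all genes tested were. No member lay below it in all 3, where 10.9% of genes did. As deposited, 1 member was higher with lead in all 3 pairs (8.55% of genes) and 0 were lower (3.89%). Over the lead coefficients, 1 of 8 members had an unadjusted p under 0.05 against 1.53% of genes, and 0 of 8 were called at an adjusted p under 0.05 against 0.119%. The members' median lead coefficient was 0.04, against 0.02 over all genes tested. It was above 0 in 5 members and below 0 in 3, and above 0 in 60.7% of all genes tested.

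The Cpox probe sets disagreed. The second one had levels of 9.78 with saline and 9.24 with lead in wild type, 9.51 and 9.77 in the heterozygotes, and 9.03 and 9.39 in Mt-KO. Its relative lead differences were -0.36, 0.11 and 0.26, lower with lead in wild type where the first was higher. The third was dim, with a mean of 6.30, and gave -0.20, -0.12 and -0.05. Which of the first 2 is the brighter depends on the summary, because GC-RMA put the second at 11.50 to 12.36 over the pools and the first at 7.79 to 9.04. With the mean of the probe sets the Cpox lead coefficient was 0.07. Lead was above saline in all 3 pairs for the first probe set in GC-RMA (as deposited 0.74, 0.24 and 0.55) and in PLIER (0.22, 0.22 and 0.48), and in 2 of 3 for the second (-0.50, 0.33 and 0.33 in GC-RMA).

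**Figure D4:**
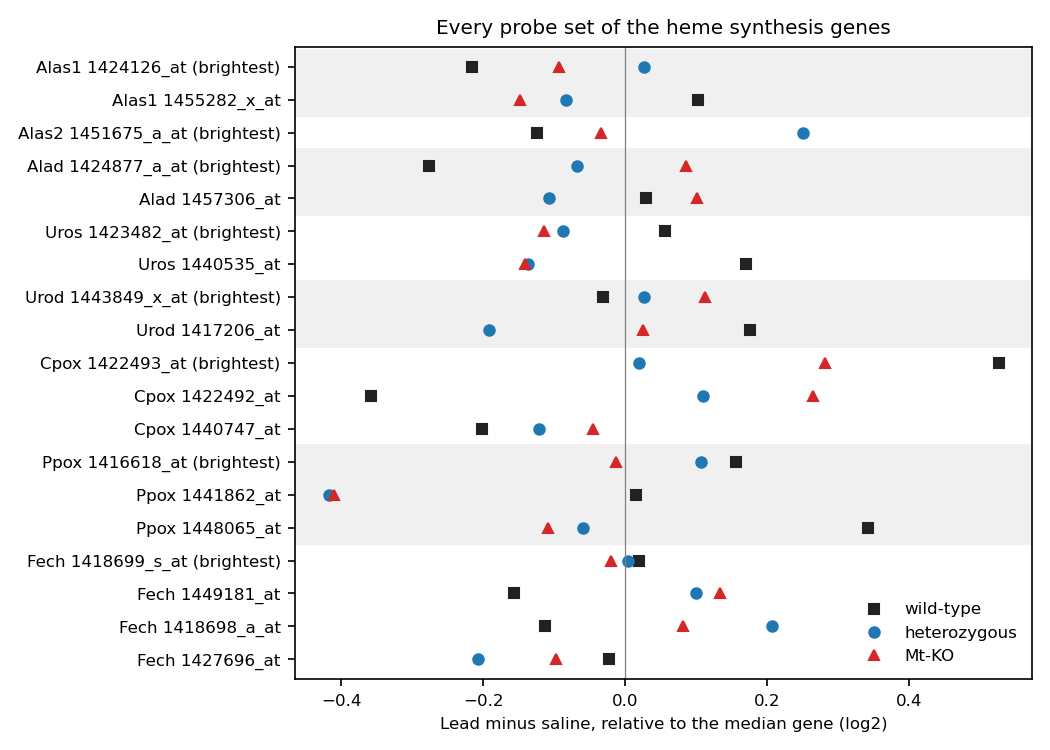
Lead minus saline difference in log2 RMA level relative to the median gene of the pair (x axis) for all 19 probe sets of the 8 genes (y axis, the brightest of each gene marked), with 1 point per genotype. The 2 brighter Cpox probe sets lie on opposite sides of 0 in wild type (0.53 and -0.36) and on the same side in Mt-KO (0.28 and 0.26).

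Ppox, which makes protoporphyrin, had levels of 9.81 and 9.78 in wild type, 9.57 and 9.83 in the heterozygotes, and 9.73 and 9.81 in Mt-KO, saline first. Its relative differences were 0.16, 0.11 and -0.01, and its lead coefficient was 0.10 (SE 0.11, limma adjusted p = 1). In GC-RMA it read 2.92 to 3.17, below that summary's median over all probe sets of every array (3.33 to 3.60). The other probe sets of Ppox gave 0.02, -0.42 and -0.41, and 0.34, -0.06 and -0.11.

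Fech, the ferrochelatase that inserts iron, had the smallest pair differences of the 8 in RMA, in its brightest probe set there. Its levels were 11.82 with saline and 11.66 with lead in wild type, 11.56 and 11.71 in the heterozygotes, and 11.57 and 11.64 in Mt-KO. Relative to the median gene the differences were 0.02, 0.00 and -0.02. The lead coefficient was 0.02 (SE 0.15, limma adjusted p = 1), above that of 49.9% of all genes, and its 95% interval ran from -0.27 to 0.32. Its other probe sets gave -0.16, 0.10 and 0.13 for the next brightest, -0.11, 0.21 and 0.08 for the one after it and -0.02, -0.21 and -0.10 for the dimmest. In GC-RMA the first probe set gave -0.27, -0.01 and 0.15 relative to the median gene. It read 9.41 to 10.02 over the pools there, below the next one at 11.07 to 11.34.

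Between genotypes the members differed most for Alad, Cpox and Alas2. Alad had a coefficient of 0.30 in Mt-KO against wild type (SE 0.14, unadjusted p = 0.0285, limma adjusted p = 1). The difference between the saline pools was 0.13 relative to the median gene and that between the lead pools 0.52, with wild-type lead the lowest pool. The Alad coefficient rested on single pools: it was 0.00364 without wild-type lead (limma adjusted p = 0.984) and 0.59 without wild-type saline (limma adjusted p = 0.000926, in a fit that called 2429 of the 10916 genes). Cpox had a coefficient of 0.28 in Mt-KO (SE 0.15, limma adjusted p = 1) and 0.26 in the heterozygotes (SE 0.15, limma adjusted p = 1). Its relative difference from wild type was 0.42 in Mt-KO and 0.50 in the heterozygotes among saline pools, and 0.21 and 0.00 among lead pools, with wild-type saline the lowest pool. Without wild-type lead, the Cpox coefficients were 0.32 (limma adjusted p = 0.0182) and 0.29 (limma adjusted p = 0.0471), in fits that called 4380 and 2421 of the 10916 genes. Alas2 was lower in the heterozygotes (coefficient -0.33, SE 0.15, unadjusted p = 0.0302, limma adjusted p = 1), by -0.53 in saline and -0.15 in lead relative to the median gene. That coefficient was -0.0643 without wild-type saline (limma adjusted p = 0.667) and -0.0707 without heterozygous saline (limma adjusted p = 1). Without wild-type lead it was -0.60 (limma adjusted p = 0.00113), in the fit that called 2421 genes.

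In Mt-KO against wild type, 0 of 8 members were called, against 0.431% of all genes, and 1 of 8 had an unadjusted p under 0.05, against 3.50%. In the heterozygotes 0 of 8 were called, against 0.119%, and 1 of 8 had an unadjusted p under 0.05, against 1.20%. No member lay more than 1.5-fold from the median gene in a genotype pair, where 3.02% and 0.843% of genes did for Mt-KO against wild type in saline and in lead, and 1.31% and 0.504% for the heterozygotes. In the fit of lead by alleles 0 of 8 members were called, and all 8 coefficients were below 0, from -0.32 for Alad to -0.02 for Cpox. Their median was -0.15, the same as over all genes tested at -0.15, where 19.9% of genes lay above 0.

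**Figure D5:**
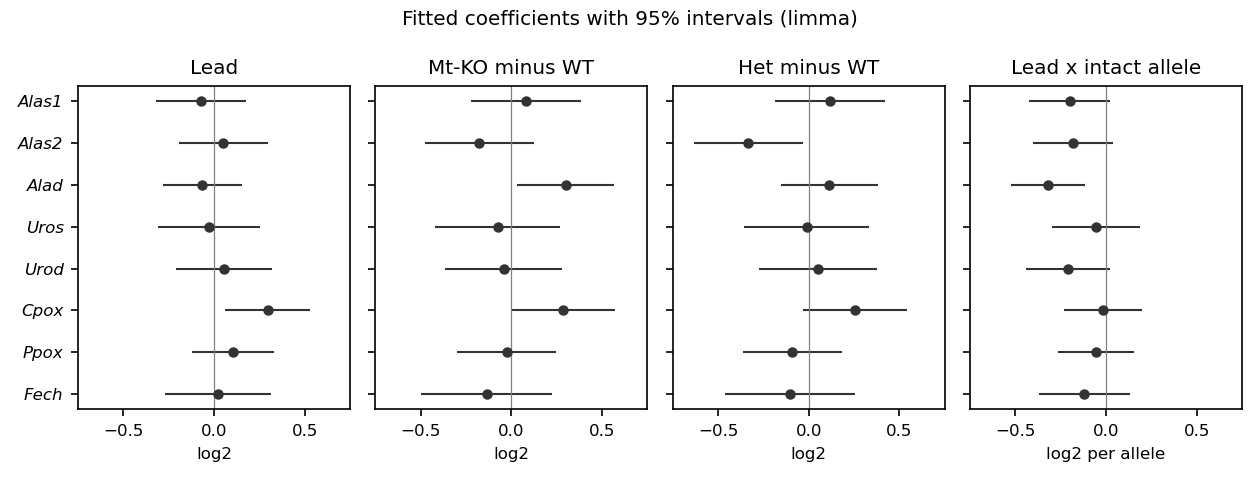
Coefficients of the fits on the log2 scale (x axis) with their 95% intervals for the 8 genes (y axis), for lead, Mt-KO against wild type, heterozygous against wild type, and the change in the lead difference per intact allele. The interval leaves out 0 for Cpox with lead (0.06 to 0.53), Alad in Mt-KO, Alas2 in the heterozygotes and Alad per allele, and no adjusted p passed 0.05.

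Genes around the pathway were read from 4 lists. Of 56 further genes of heme supply, control, breakdown and use, 53 were measured and 47 tested. With lead 0 of the 47 were called, against 0.119% of all genes tested. The lead coefficient lay above 0 in 60.7% of all genes tested, with a median of 0.02. Among 13 tested genes of the other steps of heme synthesis and its supply, 7 lay above 0 and the median lead coefficient was 0.00. The lowest were Tmem14c, which moves protoporphyrinogen into mitochondria (-0.18, limma adjusted p = 1), and the glycine carrier Slc25a38 (-0.15, limma adjusted p = 1). Of 12 genes that control ALA synthase, 10 lay above 0 with a median of 0.05, led by the heme-binding protein Pgrmc1 at 0.14 (limma adjusted p = 1).

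Of 9 genes of heme breakdown and transport, 6 were tested, with 2 above 0 and a median of -0.02. The 2 were the heme transporter Slc48a1 at 0.14 and the exporter Abcg2 at 0.08 (limma adjusted p = 1 for both). Hmox1, the inducible heme oxygenase, was too dim to be tested, at 8.33, 8.42 and 8.56 in the saline pools and 8.56, 8.61 and 8.34 in the lead pools, in the order wild type, heterozygous, Mt-KO. Those groups overlap. The constitutive Hmox2 had a lead coefficient of -0.05 (limma adjusted p = 1). Of 19 genes whose products carry or process heme, 16 were tested and 10 lay above 0, with a median of 0.04, and the largest were Cox15 at 0.19 and cytoglobin, Cygb, at 0.18 (limma adjusted p = 1 for both).

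Cox15, which turns heme into the heme a of cytochrome oxidase, was the 1 gene of the 47 called in any of these fits. Of all genes tested, 0.119% were called for lead, 0.431% in Mt-KO, 0.119% in the heterozygotes and 3.77% per intact allele. Cox15 rose in Mt-KO against wild type by 0.62 (SE 0.15, limma adjusted p = 0.0144), a 1.54-fold difference. Its levels were 9.88 with saline and 10.22 with lead in wild type, 10.57 and 10.57 in the heterozygotes, and 10.56 and 10.79 in Mt-KO, so both wild-type pools lay below the other 4. The heterozygous coefficient was 0.51 (limma adjusted p = 0.406). The call was lost in each of the 7 other processing settings tried, where the coefficient was 0.33 to 0.91 and the adjusted p 0.218 to 0.848. A second probe set of Cox15 gave 0.41 and 0.92 for Mt-KO minus wild type as deposited, in saline and in lead, and another gave -0.42 and 0.16. This last one was about as bright in RMA as the called probe set, at 10.14 to 10.57. In GC-RMA it was the brighter, at 11.74 to 12.76 against 9.18 to 10.71, and gave -0.74 and -0.08. The call thus depends on the probe set taken.

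The genes whose levels, less the array median, followed 4 of the members most closely over the 6 pools were found by Pearson correlation. Alad was followed by 4930402H24Rik (r = 0.992), Papola (0.990) and Gart (0.989). Fech was followed by Srsf6 (0.995), Aars (0.987) and 4931408D14Rik (0.986). For Alas1 they were Vps45 (0.994), Cbln4 (0.986) and Lmbrd1 (0.986), and for Alas2 Pak7 (0.993), Zfp386 (0.979) and Prmt1 (0.978). These are the highest correlations among the 10916 genes tested, each over 6 points that share their arrays, and no other member of the pathway is among them.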

How the data were processed

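Whole-brain RNA of 6 pools was read on 6 Affymetrix arrays, and the deposited files hold 3 summaries of each, which are counted as 1 sample. Per the file headers and labels, the authors deposited RMA and GC-RMA values on a log2 scale and PLIER values as linear intensity, made with tools that the submitters' processing notes list as Partek, RMA, GCRMA and PLIER. Versions are not given in the sources used here. Of 45101 probe sets, 34958 name 1 gene symbol, 932 several and 9211 none; 34754 of the first were found by gene ID in the GRCm38.p6 gene table.

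The brightest probe set by mean RMA stood for each gene, and the upper 60% by brightness (above 9.42) were tested. An additive model of genotype and lead was fitted with limma 3.58.1 in R 4.3.3, with a brightness trend and Benjamini-Hochberg adjustment over 10916 genes. It leaves 2 residual degrees of freedom, and its prior degrees of freedom were infinite, so each gene was given the spread typical of its brightness. A second fit let the lead difference change linearly with intact alleles (2, 1 and 0). The lead coefficient of the first fit was tested on simulated data, and the second fit was not. PLIER values were tested as log2(value + 16). The labelling kit in the labels is one for whole-transcript arrays. The number of arrays limits precision.

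The 8 members, picked by symbol, and the gene lists were chosen with earlier results of these data known. Named list genes are those called and up to 3 per list with the largest absolute t for lead; Hmox1, Nrf1, Gata1 and Hba-a1 lie outside that rule and were named after their values were seen, and genes like a member are the 3 with the highest correlation. Alternatives were the other summaries, quantile normalization, centring, the filter, the probe sets, the trend and leaving out arrays.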

Additional observations from a re-analysis of the deposited data

How the results depend on the processing

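No pool has a replicate, so no p rests on replicates of a pool. In the main fits each p rests on the spread typical of a gene's brightness. Some other settings had finite prior degrees of freedom, such as GC-RMA (4.94 for lead) and quantile normalization (4.74 for lead). There the gene's own residual spread entered as well. Without the trend, the typical spread was not tied to brightness. The lead fit pairs the pools by genotype, and without this genotype block 0 members were called and the Cpox coefficient was 0.30 (limma adjusted p = 1). Pairing by replicate number was not possible because each group holds 1 pool. Members kept the sign of their coefficients under most settings. The lead coefficient reversed for Alas2 (-0.0168) and Fech (-0.0261) in GC-RMA, for Fech (-0.00291) after quantile normalization, for Uros in PLIER (0.00267) and for Ppox with the mean of its probe sets (-0.0230). The Mt-KO coefficient of Cpox became -0.0512 with the mean of its probe sets, and the heterozygous coefficient of Alad became -0.34 in GC-RMA. Per intact allele, Cpox turned to 0.0917 in GC-RMA, 0.0520 after quantile normalization and 0.12 with each array centred. The mean of its probe sets gave the 1 member called there (-0.23, limma adjusted p = 0.0472), in a fit that called 508 of the 10916 genes. The cause was not tested. Among 56 single-pair differences, 0 passed 1.5-fold, against 7 in GC-RMA, 1 in PLIER and 5 at the lower fold limit tried. Over all genes and pairs the shares past the limit were 1.15%, 5.55%, 2.75% and 9.42% in the same order. The Cpox lead coefficient was 0.07 to 0.51 over the settings (adjusted p 0.954 to 1), and the Alad coefficient per allele -0.86 to -0.18 (adjusted p 0.0548 to 0.400).

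Leaving out 1 array or the wild-type pair changed calls. Members called ranged from 0 to 3 with lead, 0 to 4 in Mt-KO, 0 to 3 in the heterozygotes and 0 to 1 per allele. Without the wild-type pair, Alas2 (0.23, limma adjusted p = 0.0422), Cpox (0.27, 0.0180) and Urod (0.19, 0.0383) were called with lead, in a fit that called 2632 genes. Without wild-type saline, Alad (0.59, limma adjusted p = 0.000926) and Alas1 (0.32, 0.0188) were called in Mt-KO, and Alad (0.41, 0.00993), Alas1 (0.36, 0.0104) and Urod (0.26, 0.0351) in the heterozygotes, in fits that called 2429 and 2627 of the 10916 genes. Without wild-type lead, Alas2 (-0.44, limma adjusted p = 0.00315), Cpox (0.32, 0.0182), Fech (-0.28, 0.0152) and Urod (-0.25, 0.0270) were called in Mt-KO, and Alas2 (-0.60, 0.00113), Cpox (0.29, 0.0471) and Fech (-0.24, 0.0462) in the heterozygotes, in fits that called 4380 and 2421 genes. Per allele, Alad (-0.32, limma adjusted p = 0.0438) was called without heterozygous lead and Alas2 (-0.69, 0.0315) without Mt-KO saline, in fits that called 649 and 154 genes.

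Leaving out arrays moved the lead coefficients over -0.20 to 0.0884 for Alas1, -0.12 to 0.23 for Alas2, -0.19 to 0.13 for Alad, -0.0740 to 0.0215 for Uros, -0.0188 to 0.19 for Urod and -0.0444 to 0.11 for Fech. The Mt-KO coefficient of Alas2 ran from -0.44 to 0.0926, the heterozygous coefficient of Alad from -0.18 to 0.41, and per allele Alas2 from -0.69 to 0.32 and Cpox from -0.22 to 0.19. Over all genes tested, the settings called 0 to 13 with lead (1 to 2632 with arrays left out), 0 to 68 in Mt-KO (8 to 4380), 0 to 10 in the heterozygotes (3 to 2627) and 0 to 508 per allele (15 to 1029).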
